A study of Mus musculus with 2 samples.

Results

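Etv1, Etv4 and Etv5 form the Pea3 subfamily of the ETS family, a family of transcription factors that share a DNA-binding domain recognizing a GGAA core. Their expression was examined in primordial germ cells (PGCs), the precursors of eggs and sperm, with and without over-expression (OE) of Klf9. The members were taken by gene symbol and are 3 of the 23320 gene symbols that both files hold, with 1 row each in each file. They were selected on the FPKM ratio between these libraries, so that difference is given as a description and was not tested.

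The cells were E13.5 PGCs sorted by GFP from male and female genital ridges of Oct4-deltaPE-GFP transgenic mouse embryos (MCH females mated with C57BL/6J transgenic males). The control group (1 library) received a control lentivirus and the Klf9-OE group (1 library) a lentivirus of the CSII-EF-MCS series carrying the Klf9 coding region, each at an MOI of 5, and both groups were cultured for 1 day on gelatin. The labels state that the medium held bFGF, whereas the paper describes this RNA-seq culture as lacking it, and neither source separates the 2 libraries in this respect. The medium that the paper gives for inducing embryonic germ cells also holds LIF and EGF. Values are FPKM, a read density scaled for exon length and library size, each with the 95% interval that Cufflinks gives. The interval covers estimation within a library and not the spread between cultures, so with a single library on each side no difference has a replicate behind it.

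Klf9, the gene carried by the vector, was read first. Klf9 had an FPKM of 2.27 in the control library (95% interval 1.97 to 2.57) and 80.8 in the Klf9-OE library (77.0 to 84.5), a ratio of 35.6. At the same MOI the paper reports a far higher fold of over-expression by RT-qPCR, in younger PGCs cultured for longer. Why the measures differ was not tested. The read numbers implied by the Cufflinks intervals were even for 87.2% of 1835 genes with 1 to 9 implied reads in the Klf9-OE library and for 36.1% of 2197 in the control library, and what this does to the intervals was not tested. The Klf9-OE intervals were therefore also widened by the square root of 2, as would apply if each read had been counted in a pair.

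Pea3 factors act at the end of receptor tyrosine kinase signalling. Fibroblast growth factors and GDNF activate the ERK kinase cascade, which phosphorylates Pea3 proteins and raises transcription of their genes, in part by releasing the repressor Capicua (Cic) from octamer sites near them. The ubiquitin ligase COP1 degrades the proteins. In the male germ line, ETV5 is known for its role in the self-renewal of spermatogonial stem cells, and bFGF, which signals by the same cascade, is used to convert PGCs to embryonic germ cells. KLF9 is a zinc finger factor that binds GC-rich elements, including the GC box GGGCGG and the related CACCC box.

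RefSeq promoter windows (250 bases before to 50 after a start, GRCm38.p6, the assembly of mm10) were used for 2 of the members, Etv1 and Etv5, each with 2 starts. The stretches before the starts of Etv5 are shown because Etv5 was the most abundant member and because its starts differ in the elements named above. Bases that the GENCODE annotation places in an exon are left out. Capitals mark a GC box or the octamer TGAATGGG, which resembles a Capicua site, on either strand. Both stretches are written 5′ to 3′ along the minus strand, the strand of the gene. The outer one lies at chr16:22439720-22439820 and the internal one at chr16:22438369-22438618 of mm10.
Etv5 outer start: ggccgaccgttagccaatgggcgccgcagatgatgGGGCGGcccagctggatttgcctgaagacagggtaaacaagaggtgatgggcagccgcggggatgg
Etv5 internal start: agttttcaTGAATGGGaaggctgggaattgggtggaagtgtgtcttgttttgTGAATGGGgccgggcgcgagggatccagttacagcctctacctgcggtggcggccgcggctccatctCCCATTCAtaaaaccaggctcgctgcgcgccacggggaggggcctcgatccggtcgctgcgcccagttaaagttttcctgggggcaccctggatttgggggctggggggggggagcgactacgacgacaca

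The whole outer window, 300 bases, held 3 GC boxes, whose first bases lay at -215, -99 and -55 relative to the start, and no CACCC box. The internal window held no GC box, a CACCC box on each strand and 3 copies of TGAATGGG, which begin at -242, -198 and -131, the last of them on the opposite strand. Across all 32851 RefSeq windows of this length, 35.7% held GGGCGG on at least 1 strand, 57.5% held CACCC and 10.7% held 3 or more GC boxes. TGAATGGG was present in 1.08% of windows, and 1 window, that of the internal Etv5 start, held 3 copies. This octamer was added after the sequence was read, so its frequency is a description of the window it was taken from. The octamers chosen earlier, TGAATGAA and TGAATGGA, were in 1.30% and 1.21% of all windows and in none of the 4 windows of Etv1 and Etv5, nor was the ETS site CCGGAAG, which was in 8.86% of all windows. Of the Etv1 windows, one held 2 CACCC boxes and the other held none of the elements searched.

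All 3 Pea3 genes were higher in the Klf9-OE library, and their intervals did not overlap between the libraries. Among the 12565 genes with an FPKM of at least 1 in at least 1 library, intervals lay apart and higher for 14.8% and lower for 20.2%. Etv5 (chromosome 16, 22381313 to 22439570 of mm10, minus strand), a factor also known as ERM, had an FPKM of 12.3 in the control library (11.4 to 13.1) and 50.6 in the Klf9-OE library (48.7 to 52.5). Etv4 (chromosome 11, 101769742 to 101785310), the founding Pea3 gene, had an FPKM of 2.26 in the control library (1.86 to 2.67) and 18.8 in the Klf9-OE library (17.5 to 20.1). Etv1 (chromosome 12), a factor known from motor and proprioceptive neurons, had an FPKM of 0.370 in the control library (0.248 to 0.492) and 1.17 in the Klf9-OE library (0.976 to 1.36). The order of the members by level, Etv5 above Etv4 above Etv1, was the same in both libraries.

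The ratio of Klf9-OE to control was 8.31 for Etv4, with 6.55 to 10.8 spanned by the interval bounds. It was 4.13 for Etv5 (3.71 to 4.62) and 3.16 for Etv1 (1.98 to 5.49). The span of Etv4 lay above the spans of the other members, and those of Etv5 and Etv1 overlapped. On the scale of log2(FPKM + 0.1), the fold changes were 3.0 for Etv4, 2.04 for Etv5 and 1.43 for Etv1, against a median of -0.015 over 18742 genes above 0 in at least 1 library. A 2-fold higher value on this scale was found for 3 of the 3 members and for 4.52% of all these genes, and for 3.68% of the 12565 genes with an FPKM of at least 1 in at least 1 library. With a pseudocount of 1 the log2 fold change of Etv1 was 0.66, under 2-fold. Ordered by log2 fold change among those 12565 genes, Etv4 was at position 168, Etv5 at 207 and Etv1 at 296. Klf9, the gene of the vector, was itself at position 108. Because the members were selected for this difference, nothing is read from these counts about the subfamily. With the Klf9-OE intervals widened, the lower bounds were 17.0 for the FPKM of Etv4, 47.9 for Etv5 and 0.896 for Etv1, still above the control upper bounds.

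**Figure D1:**
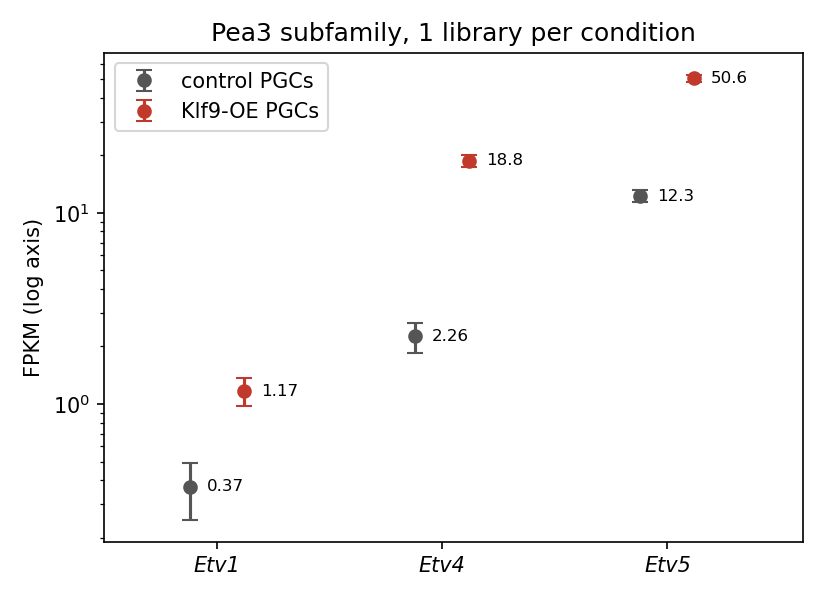
FPKM of Etv1, Etv4 and Etv5 on a log axis in the control library (grey) and the Klf9-OE library (red), 1 library each, with bars for the Cufflinks 95% interval. Each red point lies above its grey point without overlap, from 0.370 to 1.17 for Etv1, from 2.26 to 18.8 for Etv4 and from 12.3 to 50.6 for Etv5.

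The size of the Etv4, Etv5 and Klf9 differences depended on how the reads behind them were taken. The intervals implied 124 reads for Etv4 in the control library and 834 in the Klf9-OE library, and 789 and 2738 reads for Etv5. After correction for depth (1.22 Klf9-OE reads per control read, the median over 6347 genes), the read ratio was 5.53 for Etv4 and 2.84 for Etv5, below the FPKM ratios of 8.31 and 4.13. The gap was wider for Klf9, with 230 and 1825 implied reads and a corrected read ratio of 6.51 beside the FPKM ratio of 35.6. For Etv1, with 36.9 and 147 implied reads, the corrected read ratio of 3.26 was close to the FPKM ratio. Direction was the same by either measure for each member, and the order of Etv1 and Etv5 was exchanged. The interval gives a read number only where no uncertainty among transcripts adds to it, and whether this holds for Etv4, Etv5 and Klf9 was not tested. FPKM also depends on the transcript length assembled in each library. The Klf9 locus ran from 23141039 to 23168100 in the control library and from 23141226 to 23166911 in the Klf9-OE library. Etv5 had the same bounds in both, and Etv4 ended at 101785310 and 101785317. The part of assembled length in these ratios was not tested.

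By FPKM, the make-up of the subfamily differed between the libraries. The sums and shares below carry the limits of FPKM given above. They would differ with the read ratios of 5.53 for Etv4, 2.84 for Etv5 and 3.26 for Etv1. FPKM is scaled for length, so levels can be added across genes, and the Pea3 sum was 14.9 FPKM in the control library and 70.6 in the Klf9-OE library, a ratio of 4.74. Etv5 supplied 82.3% of the sum in the control library and 71.7% in the Klf9-OE library. Etv4 supplied 15.2% and 26.6%, and Etv1 supplied 2.48% and 1.66%. The Pea3 genes made up 11.6% of the FPKM of the 24 ETS genes measured in the control library and 40.8% in the Klf9-OE library, while the sum of the other ETS genes was 114 and 102 FPKM.

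By FPKM among those 24 ETS genes, with the same limits, Etv5 was the sixth highest in the control library and the highest in the Klf9-OE library. Its control interval overlapped that of Elf4, the next above it, and lay below that of Etv6. In the Klf9-OE library its interval lay above that of Gabpa, the next in order at 23.1 FPKM (22.0 to 24.1). Etv4 moved from position 13, with an interval that overlapped those of Erg and Ets2 on either side, to position 3, between Gabpa and Elf2, where it overlapped Elf2 (16.8 FPKM, 16.0 to 17.6) and not Gabpa. Etv1 was at position 17 in the control library and 16 in the Klf9-OE library, overlapping its neighbours in both.

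The files also hold loci that Cufflinks assembled without a gene name, and 2 of these lay inside Pea3 genes. Both were in the Klf9-OE file. One of 229 bases, at chr16:22438145-22438373, began 5 bases before the internal RefSeq start of Etv5, whose upstream sequence is given above, and ran downstream from it. It had an FPKM of 8.06 (3.39 to 12.7) from 11.9 implied reads and overlapped no GENCODE exon. The other, of 210 bases at chr11:101772459-101772668, lay in an intron of Etv4 and had an FPKM of 21.6 (12.7 to 30.5) from 23.7 implied reads. The intervals of these 2 loci were not widened for reads counted in pairs. No such locus was inside a Pea3 gene in the control file. Loci of this kind were more numerous in the Klf9-OE file as a whole (15127 against 6482), and among named genes with an FPKM of at least 10 they lay inside 22.2% of 6625 genes in the Klf9-OE library and 8.49% of 6643 in the control library. The files give no strand for them, so reads of Etv5 and of another RNA at this place cannot be told apart. Etv1 had no such locus, but its own locus began 805 bases further upstream in the Klf9-OE file (38779453) than in the control file (38780258), within a GENCODE exon of Etv1 from 38779380 to 38779479.

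**Figure D2:**
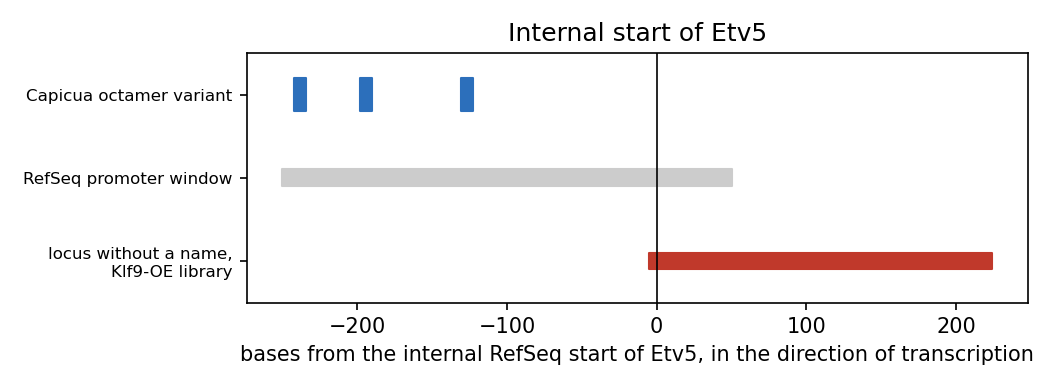
Map of the internal RefSeq start of Etv5, with distance in bases from the start along the gene's strand on the horizontal axis. Blue blocks mark the 3 copies of the octamer at -242, -198 and -131, the grey bar is the promoter window and the red bar is the 229-base locus of the Klf9-OE library, which begins 5 bases before the start.

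Among the other ETS genes no member was 2-fold higher. Of 24 listed, 21 had a row of their own in both files. Of these, 0 were 2-fold higher (4.52% of all genes), 3 were 2-fold lower (4.0% of all genes), and their median log2 fold change was -0.082, with a range from -1.70 to 0.87. Each of the 21 had a log2 fold change below that of every Pea3 gene, of which the lowest was the 1.43 of Etv1. The Pea3 genes were selected for this difference, so nothing is read from that order about the subfamily. With 21 genes, a count of 0 is also close to the 4.52% of all genes. Among genes of FPKM 1 or more, 2-fold lower values were found for 3.51%, and intervals lay apart for 14.8% in the higher and 20.2% in the lower direction. Of the 13 other ETS genes at that level, intervals lay apart and higher for 3 and lower for 6. Spi1, below an FPKM of 1, was also lower with intervals apart. Its Klf9-OE value was listed at 0 with an interval of no width, so any control interval above 0 lies apart from it. The Elk1 and Erf genes were counted together with neighbouring genes in at least 1 file, and Etv3l was not analysed here.

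The 3 genes with higher intervals belonged to the ETS and TCF subfamilies. Elk3, a ternary complex factor that binds beside SRF, had an FPKM of 1.20 (0.98 to 1.42) in the control library and 2.27 (2.0 to 2.55) in the Klf9-OE library. Its relative Elk4 had 3.64 (3.06 to 4.22) and 4.89 (4.48 to 5.31). Ets2 had 2.25 (1.94 to 2.57) and 3.30 (2.93 to 3.68). These values lie 1.34 to 1.9 times higher and short of 2-fold. Ets1, with 14.5 (13.7 to 15.4) and 13.7 (12.9 to 14.5), overlapped between the libraries.

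The lower ones were spread over other subfamilies. Erg, a factor of endothelial cells, had an FPKM of 3.05 (2.64 to 3.45) in the control library and 1.33 (1.09 to 1.57) in the Klf9-OE library. Elf4 had 12.7 (11.6 to 13.7) and 6.15 (5.75 to 6.55), and Elf3, an epithelial factor, had 4.06 (3.30 to 4.83) and 2.04 (1.66 to 2.42). The fold of Elf3 fell just short of 2 on the scale used. Elf1, Elf2 and Etv6 had log2 fold changes of -0.31, -0.16 and -0.23 with intervals apart. Spi1, the myeloid factor PU.1, had 0.225 (0.055 to 0.395) in the control library and was listed at 0 in the Klf9-OE library. Gabpa (22.5 and 23.1), Etv3 (5.49 and 5.98) and Spic (4.43 and 4.68) overlapped between the libraries, as did the 7 remaining genes, which had an FPKM below 1 in both.

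**Figure D3:**
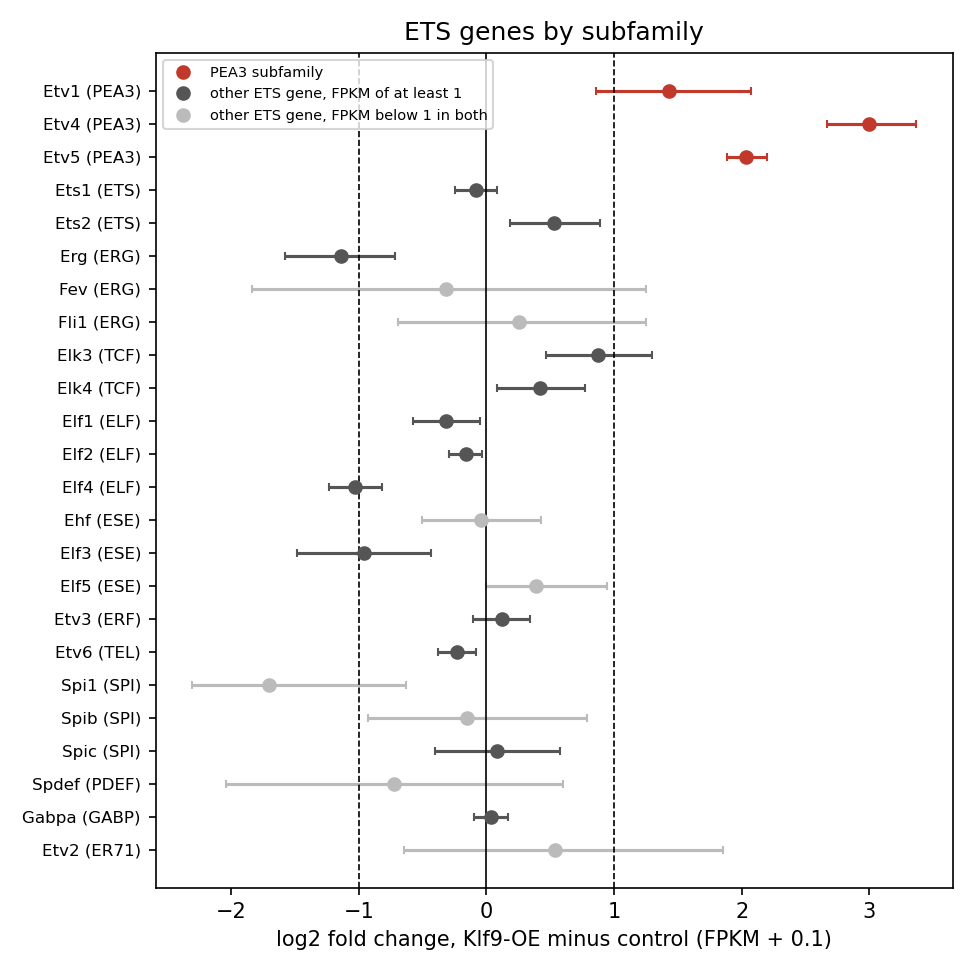
Log2 fold change of FPKM + 0.1 (Klf9-OE minus control) for the 24 measured ETS genes, labelled with their subfamily, with bars spanned by the Cufflinks bounds of both libraries and dashed lines at 2-fold. The 3 Pea3 genes (red) lie between 1.43 and 3.0, and the other genes (dark grey, or light grey where FPKM was below 1 in both) lie between -1.70 and 0.87.

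Marker genes of the sorted cells and of other gonadal cells were read in the same libraries. The germ cell markers Ddx4, Dazl, Pou5f1 and Dppa3 each had an FPKM above 178 in both libraries, and the sum of 10 germ cell markers was 1759 in the control and 1480 in the Klf9-OE library. Intervals lay apart and lower for 8 of the 10 (20.2% of all genes of FPKM 1 or more), Pou5f1 being at 387 and 277, and higher for Dazl (14.8% of those genes), with a median log2 fold change of -0.35. In bulk RNA, fewer cells of a type and less RNA per cell cannot be told apart. For 9 gonad somatic markers the sum was 22.9 and 28.0 FPKM and the median -0.19. Of these, Wt1 (3.41 and 5.64), Gata4 and Amh were higher with intervals apart, and Sox9 (2.04 and 1.09) was lower with intervals apart. That is 3 and 1 of the 6 with an FPKM of 1 or more, against 14.8% and 20.2% of genes at that level. Tcf21 was listed at 0 in the Klf9-OE library. For 7 endothelial markers, beside Erg, the sum was 20.3 and 30.7, mostly from Pecam1 (16.8 and 24.2), which PGCs also express. Cdh5 was at 1.995 and 5.09, Tek was at 0.735 and 0.439, Emcn was at 0.030 and then listed at 0, and the median was 0.28. Intervals lay apart and higher for Pecam1 and Cdh5 (14.8% of genes of FPKM 1 or more). They lay apart and lower for Tek, which was below an FPKM of 1 in both libraries. For 9 macrophage markers, beside Spi1, the sum was 6.14 and 5.46, mostly from Cd68 (3.69 and 4.11), with a median of -0.47 that turned to 0.15 over the 3 genes of FPKM 1 or more. C1qb (0.635) and Lyz2 (1.00) were listed at 0 in the Klf9-OE library, whereas Csf1r was at 0.307 and 1.18. The part of these cells in the Pea3 values was not tested.

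The genes that carry the signal to Pea3 factors had values on both sides of equality. In a list of 22 genes from FGF receptors to ERK, 20 had rows of their own, and none was 2-fold higher or lower, against 4.52% and 4.0% of all genes. The median log2 fold change was -0.020. Among the 19 of FPKM 1 or more, intervals lay apart and higher for 2 and lower for 6, against 14.8% and 20.2% of genes at that level. Fgfr1, a receptor for bFGF, had an FPKM of 16.6 (15.6 to 17.5) in the control library and 15.2 (14.4 to 15.9) in the Klf9-OE library. Fgfr2 had 5.21 (4.76 to 5.67) and 4.07 (3.73 to 4.41). Sos1, the exchange factor that loads RAS with GTP, had 16.7 (15.8 to 17.6) and 9.64, with intervals apart, and Ksr1, a scaffold of the cascade, had 3.06 (2.74 to 3.38) and 4.68 (4.28 to 5.08). Frs3, an FGF receptor adaptor, had 3.44 (2.71 to 4.18) and 2.16 (1.78 to 2.55), and Fgfr3 had 5.95 (5.44 to 6.45) and 4.70 (4.27 to 5.14). Mapk3, which encodes ERK1, had 72.6 and 48.8 with a Klf9-OE interval that reached down to 0, so no direction is given. Transcript levels do not report the activity of these proteins, which was not measured.

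Regulators of Pea3 genes and proteins were read at the transcript level. Of 8 genes of Capicua, its ataxin partners and the COP1 ligase with rows of their own, none was 2-fold higher or lower (4.52% and 4.0% of all genes), and the median log2 fold change was 0.0045. Cic had an FPKM of 79.0 (76.5 to 81.6) in the control library and 58.0 in the Klf9-OE library, where the Cufflinks interval ran from 0 to 11331, so no direction can be read for it. Cop1, listed under its older symbol Rfwd2, had 15.7 (14.9 to 16.5) and 15.6 (14.8 to 16.3). Atxn1 was the member with intervals apart, at 0.386 (0.309 to 0.463) and 0.702 (0.610 to 0.794).

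Genes that, like the Pea3 genes, are transcribed in response to ERK were mostly higher. Among 12 feedback inhibitors of the pathway above 0, 5 were 2-fold higher and none 2-fold lower, against 4.52% and 4.0% of all genes, and the median log2 fold change was 0.82. Intervals lay apart and higher for 11 of the 12, all of FPKM 1 or more, against 14.8% of genes at that level. Spry4, a Sprouty inhibitor of RAS activation, had an FPKM of 0.580 (0.439 to 0.720) in the control library and 4.60 (4.24 to 4.96) in the Klf9-OE library, a ratio of 7.94 beside the 8.31 of Etv4. Dusp6, a phosphatase of ERK, had 4.30 (3.81 to 4.79) and 14.2 (13.4 to 15.0). Dusp4 and Dusp5, nuclear phosphatases, had ratios of 2.58 and 2.09, and Spred3 had a ratio of 2.34 at an FPKM of 1.08 in the Klf9-OE library. As this list was chosen with results of these data known, it is no independent evidence.

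Immediate early genes, whose transcription follows ERK within minutes, had a log2 fold change above 0 for 13 of 17 members. Over all genes the median was -0.015, and some of the 13 had overlapping intervals, Fos being at 0.017. Of the 17, 3 were 2-fold higher and none 2-fold lower (4.52% and 4.0% of all genes), with a median log2 fold change of 0.35. Among the 14 of FPKM 1 or more, intervals lay apart and higher for 8 and lower for 2, against 14.8% and 20.2% of genes at that level. Egr1, a zinc finger factor, had an FPKM of 3.76 (3.32 to 4.2) in the control library and 8.45 (7.85 to 9.04) in the Klf9-OE library. Atf3, a bZIP factor of stress responses, had 1.07 (0.770 to 1.36) and 2.25 (1.76 to 2.74). Fosl1 was listed at 0 in the control library and had 0.956 (0.669 to 1.24) in the Klf9-OE library. Srf, the partner of Elk3 and Elk4, was at 13.1 (12.2 to 13.9) and 22.3 (20.9 to 23.7). Egr2 was at 0.829 (0.615 to 1.04) and 1.49 (1.23 to 1.74). Jun, Junb, Ier2 and Ier5 were also higher with intervals apart, at ratios from 1.28 to 1.43. Jund (30.1 and 19.7) and Egr4 (23.3 and 17.6) were lower with intervals apart, and Fos (10.8 and 10.9) and Myc (4.14 and 4.75) overlapped.

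**Figure D4:**
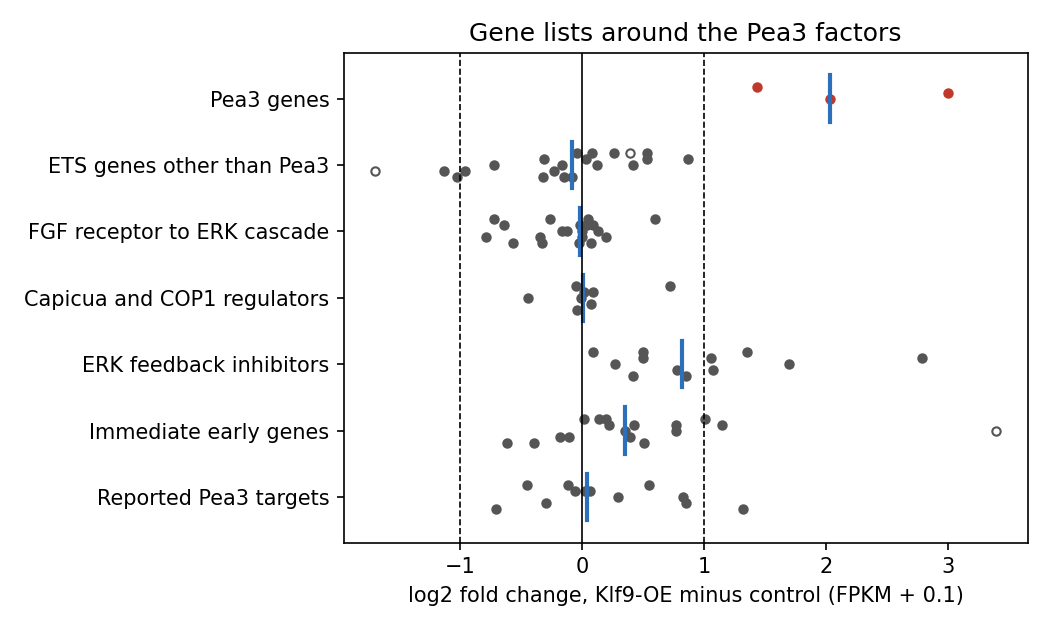
Log2 fold change of FPKM + 0.1 (Klf9-OE minus control) for each gene of 7 lists, with a blue bar at the median, dashed lines at 2-fold and open circles for genes listed at 0 in 1 library. Medians were 0.82 for feedback inhibitors and 0.35 for immediate early genes, and between -0.082 and 0.043 for the other ETS genes, the receptor cascade, the Capicua and COP1 genes and the reported Pea3 targets.

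Genes reported elsewhere as targets of Pea3 factors lay on both sides of equality. Of 12 above 0 with rows of their own, 1 was 2-fold higher and none 2-fold lower (4.52% and 4.0% of all genes), and the median log2 fold change was 0.043. The higher one was Ret, the receptor tyrosine kinase for GDNF, with an FPKM of 10.03 (9.46 to 10.6) in the control library and 25.2 (24.1 to 26.4) in the Klf9-OE library, a ratio of 2.52. Mmp9, a matrix metalloproteinase, had 7.22 (6.60 to 7.84) and 12.9 (12.1 to 13.7). Ptgs2, the inducible cyclooxygenase, had 0.415 (0.29 to 0.539) and 0.831 (0.672 to 0.989), a ratio of 2.003 before the pseudocount was added. Cdh1, the epithelial cadherin, had 23.4 (22.5 to 24.3) and 17.1 (16.4 to 17.8), and Met, the receptor for hepatocyte growth factor, had 5.06 (4.66 to 5.46) and 4.11 (3.83 to 4.39). Lhx1, T and Cxcr4 had overlapping intervals. Lhx1 was at 2.50 (2.05 to 2.94) and 3.08 (2.67 to 3.48), T (Brachyury) at 0.808 (0.553 to 1.06) and 1.23 (0.945 to 1.51), and Cxcr4 at 2.23 (1.78 to 2.68) and 2.14 (1.75 to 2.54). Bcl6b had an FPKM of 5.15 (4.71 to 5.60) in the Klf9-OE library, and in the control file it was counted together with its neighbour Slc16a13 (5.01, 4.48 to 5.54), so no difference is given.

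The genes beside the Pea3 genes on the chromosome were examined in the same libraries. Dhx8, an RNA helicase gene 2.39 kb from Etv4, had an FPKM of 39.0 (37.0 to 41.0) in the control library and 38.5 (36.6 to 40.4) in the Klf9-OE library, and Meox1 on the other side was at 0.054 and then listed at 0. Tra2b, a splicing factor gene 115 kb from Etv5, had 144 (137 to 151) and 149 (142 to 156). Dgkg, a diacylglycerol kinase gene 27.0 kb from Etv5 on the side of its starts, had 0.60 (0.441 to 0.758) and 1.13 (0.948 to 1.30), higher with intervals apart and short of 2-fold. Dgkb and Arl4a, 146 kb and 1165 kb from Etv1, had log2 fold changes of 0.32 and -0.14, at 0.034 and 13.9 FPKM in the control library. The abundant neighbours Dhx8, Tra2b and Arl4a differed by at most 0.14 on the log2 scale. The neighbours of low level, Dgkg, Dgkb and Meox1, had log2 fold changes of 0.81, 0.32 and -0.63. An effect on the region around a Pea3 gene was not tested.

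Likeness to the members was measured as the distance between genes on the log2(FPKM + 0.1) scale of the 2 libraries, among genes with an FPKM of at least 1, so it rests on 2 values a gene. The nearest to Etv4 were Idnk (distance 0.74), Zfp532 (0.79) and Tia1 (0.91), of which Idnk went from 3.54 to 14.2 FPKM. The nearest to Etv5 were Ubxn7 (0.33), Ift46 (0.42) and Orc3 (0.56). The nearest to Etv1 were Plscr2 (0.034), 9230117E06Rik (0.039) and Pcdh7 (0.055).

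**Figure D5:**
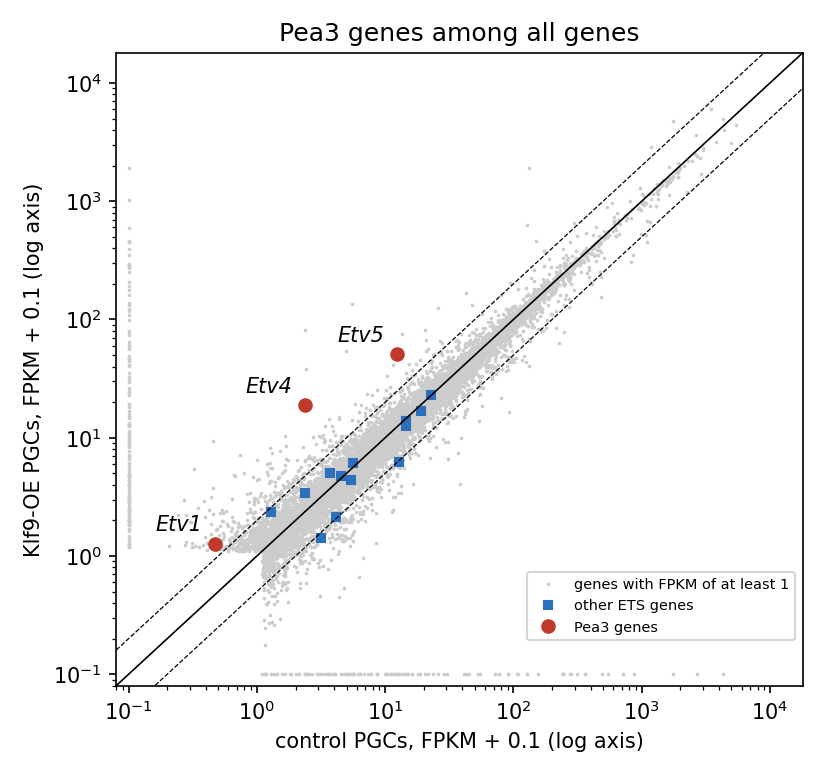
FPKM + 0.1 of 12565 genes with an FPKM of at least 1 in at least 1 library, control on the horizontal and Klf9-OE on the vertical log axis, with the line of equality and dashed lines at 2-fold. Etv4 and Etv5 (red) stand well above the upper dashed line, Etv1 lies just above it among genes of low level, and the 13 other ETS genes of this level (blue) lie below it.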

How the data were processed

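The deposited files hold, for each locus of 1 library, the FPKM and the bounds of its 95% interval. The authors mapped single-end reads to mm10 and RefSeq with TopHat2 and Bowtie and estimated FPKM with Cufflinks, per the labels and the methods. Cuffdiff results were not used here. Cufflinks also assembled transcripts in each library, so neighbouring genes can share a row with a joint name in 1 file, and such genes were left out. Starts were written 1-based.

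FPKM and bounds were summed over rows of the same symbol, and 0.1 was added to each FPKM before taking log2, so differences of low genes come out too small. Read totals are unknown, and reads behind a value were inferred as the square of 2 times the FPKM over the distance to the upper bound. Whole read numbers were those within 0.06 of an integer. With 1 library per condition no test was made. Promoter windows came from RefSeq. The members, the gene lists and the rule for named genes were chosen with earlier results of these data known. By that rule the text names the members, Klf9, ETS genes with an FPKM of at least 1, up to 5 genes a list with intervals apart, 10 preset genes, and the nearest genes by position and by value. Other genes were named after their values were seen: ETS genes below an FPKM of 1, marker genes, Atxn1, Mapk3, Ptgs2, Fosl1, Fos, Jun, Junb, Ier2, Ier5, Myc, Egr4, Gfra1, Gdnf. The fold changes, the calls of intervals apart and the inference of reads were run on simulated data. There the intervals were built by the formula that the inference inverts, so this cannot judge the inferred reads. Assembled length, joint names, reads counted in pairs, promoter windows and loci without a name were not simulated. The software was Python 3.11.15, with pandas 2.3.3, numpy 2.4.6 and matplotlib 3.10.9.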

Additional observations from a re-analysis of the deposited data

Results flagged for a closer look

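Signal was found in loci without a gene name, which entered none of the comparisons of genes, at 2 places inside Pea3 genes and in the Klf9-OE library but not in the control library. At the internal start of Etv5 the FPKM was 8.06 (95% interval 3.39 to 12.7), and in an intron of Etv4 it was 21.6 (12.7 to 30.5). These rest on 11.9 and 23.7 implied reads. If reads of the Klf9-OE library were counted in pairs, fewer reads lie behind these values, and their intervals were not widened for this. Loci without a name were more numerous in the Klf9-OE library as a whole (15127 against 6482) and lay inside 22.2% of genes with an FPKM of at least 10, against 8.49% in the control library. The difference between the libraries at these loci was not tested, and it was not tested whether the higher level of the host genes moves with it.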

How the results depend on the processing

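No paired analysis was possible because each condition has 1 library, and for the same reason no library could be left out. The log2 fold change stayed above 0 for all 3 members under every alternative. It ranged from 0.66 to 1.71 for Etv1, from 2.47 to 3.06 for Etv4 and from 1.51 to 2.10 for Etv5. A pseudocount of 1 gave 0.66 for Etv1, under 2-fold, and 2.6 for Etv4. Implied reads corrected for depth, an alternative added after the data were seen, gave 2.47 for Etv4 and 1.51 for Etv5. Of the other ETS genes, 1 was 2-fold higher with a pseudocount of 0.01, and none was 2-fold lower with a pseudocount of 1 (0 of 21) or 4-fold lower (0). The endothelial median was 0.91 where an FPKM of at least 1 was required, which left 2 genes. The same requirement turned the macrophage median from -0.47 to 0.15 and the gonad somatic median from -0.19 to 0.035, and the Capicua and COP1 median from 0.0045 to -0.0097. A pseudocount of 0.01 gave -1.11 for the macrophage median. Rescaling to the same sum turned the receptor cascade median from -0.020 to 0.041. Over all genes, 847 were 2-fold higher and 750 lower, and these numbers were 1688 and 1637 with a pseudocount of 0.01, 308 and 288 with a pseudocount of 1, 462 and 441 with an FPKM of at least 1, and 261 and 186 at 4-fold. Rescaling to the same upper quartile or the same sum, taking the highest row of a symbol, and widening the Klf9-OE intervals (also added after the data were seen) left the counts of ETS genes within 1.5 times.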

Other observations

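The receptor that signals upstream of Etv5 in spermatogonial stem cells consists of Ret and its co-receptor Gfra1, which binds GDNF. Gfra1, which was in none of the lists and was looked up after the value of Ret was seen, had an FPKM of 2.03 (1.76 to 2.31) in the control library and 5.27 (4.86 to 5.69) in the Klf9-OE library. Its ratio of 2.6 stands beside the 2.52 of Ret. Ret is also among the genes reported as Pea3 targets. Whether Ret or Gfra1 acts before or after the Pea3 genes in these cells was not tested. Gdnf, the ligand, was at 0.280 (0 to 0.679) and 0.397 (0.284 to 0.510), and its intervals overlapped.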
